A study of Mus musculus with 2 samples.

Results

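The cells described here are T cells that carried at least 1 transcript of Il1rl1, the gene of ST2, in 4 of the hashtags of a pooled single-cell experiment, and hashtags 2 and 4 were set against hashtags 1 and 3. A cell entered when it had at least 500 genes and under 10% mitochondrial UMIs (unique molecular identifiers, 1 per captured transcript). Its top hashtag had to hold at least 80% of the counts of hashtags 1 to 6 and at least 10 counts. It also needed at least 2 UMIs summed over Cd3e, Cd3d, Cd3g and Trac. These rules gave 2175 ST2 T cells, 696 in hashtag 1, 570 in hashtag 2, 389 in hashtag 3 and 520 in hashtag 4, of 6845 T cells in those hashtags and 22960 deposited barcodes. Hashtags 5 and 6 held 159 and 141 such cells and were not part of the comparison.

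The library pooled CD4 T cells of visceral adipose tissue (34000 sorted cells) and spleen (32000 sorted cells) from C57BL/6 Foxp3.Cre-YFP mice. Per the labels, Bmal1 was either intact (WT) or deleted (KO), and cells were taken at zeitgeber time 0 or 12 hours. The Foxp3.Cre-YFP allele drives Cre in Foxp3-expressing cells, and the labels give it to every mouse, so WT and KO share it. The labels do not say which hashtag carries which tissue, genotype or time, how many mice were pooled, or their age or sex. The 2 sides were formed from the clock genes of these same cells: Cry1 and Npas2 were high and Nr1d2 was low in hashtags 2 and 4, and the reverse held in hashtags 1 and 3. The 4 hashtags are therefore not replicates of labelled groups. Everything below is a description of each hashtag's own value, with no test and no p-value.

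ST2 is the receptor for interleukin-33, an alarmin released by stromal cells. Regulatory T cells (Tregs) of visceral fat express ST2 with Gata3, Pparg and Areg and expand in response to interleukin-33, while most splenic CD4 T cells lack it. The circadian clock is a feedback loop in which the BMAL1 (Arntl) and CLOCK proteins drive Per, Cry and Nr1d genes through E-box sequences, and the products of those genes repress BMAL1 and CLOCK activity or Arntl transcription. NPAS2 is a partner that can take the place of CLOCK.

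The only designed sequences that tie a cell to its side are the 15-base barcodes of the hashtag antibodies, so the 4 used here are shown, as the deposited feature names give them, 5′ to 3′. No base is capitalised because no part of a barcode matters more than another.
Hashtag 1: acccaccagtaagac
Hashtag 2: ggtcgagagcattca
Hashtag 3: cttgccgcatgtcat
Hashtag 4: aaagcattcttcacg

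The members were of similar depth per cell, but their sums differed. The sums held 2963539 UMIs in hashtag 1, 2571268 in hashtag 2, 1765314 in hashtag 3 and 2052498 in hashtag 4. The median per cell lay between 3227.5 and 3492 UMIs, and the median mitochondrial share between 2.07% and 2.13%. Levels are given in CPM, a gene's UMIs relative to all UMIs of the hashtag's sum, and an interval in parentheses after a level is its exact Poisson 95% interval, which covers counting error only.

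The share of T cells with an Il1rl1 UMI was higher in hashtags 2 and 4 than in 1 and 3. With each cell thinned to 2000 UMIs, it was 22.03% in hashtag 1, 34.8% in hashtag 2, 19.6% in hashtag 3 and 37.6% in hashtag 4. Without thinning it was 26.9%, 39.8%, 23.6% and 44.0% in the same order. In hashtags 5 and 6 the thinned share was 2.53% and 2.29%. Of 192 barcodes in hashtags 1 to 4 with no UMI of the 4 T cell genes, 22 had an Il1rl1 UMI (11.5%, exact interval 7.32% to 16.8%, median 1177.5 UMIs), and 5 of the 50 deep enough to thin did (10.0%). The part of free RNA in the membership was not tested.

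The label of Treg was checked against marker genes. Foxp3, the transcription factor that defines Tregs, was seen in 18.1%, 15.8%, 18.3% and 15% of members in hashtags 1, 2, 3 and 4. The share was 4.61%, 5.34%, 4.21% and 4.08% in T cells of the same hashtags without Il1rl1. A UMI of at least 1 of Foxp3, Ctla4, Il2ra and Ikzf2 was present in 88.4% to 94.4% of members in these hashtags. In T cells of the same hashtags without Il1rl1 it was present in 49.7% to 57.9%. Those cells were shallower, with medians of 2568 to 2710 UMIs. Since most members had no Foxp3 UMI at this depth, they are called ST2 T cells here. Transcripts of other cell types were present and uneven. The summed macrophage and monocyte markers reached 637 and 482 CPM in hashtags 1 and 2 against 65.1 and 166 in hashtags 3 and 4. The stromal and adipocyte markers reached 611 CPM in hashtag 3 and 37.5 to 67.7 in the others. The mast cell and basophil markers were at 376 and 234 CPM in hashtags 3 and 4 and at 7.76 and 10.1 in hashtags 1 and 2. None of those 3 marker sums separated hashtags 2 and 4 from 1 and 3, and no marker on these 3 lists was at 0 over the 4 hashtags. Endothelial markers summed to 450 and 410 CPM in hashtags 1 and 3 and to 354 and 329 in hashtags 2 and 4. Natural killer markers, with Klra8 at 0, were at 7.76 and 4.53 CPM in hashtags 1 and 3 and at 1.56 and 1.95 in hashtags 2 and 4. B cell markers summed to 1315, 1241, 1046 and 229 CPM in hashtags 1, 2, 3 and 4. In the same order dendritic cell markers were at 881, 548, 128 and 149, and erythroid markers at 379, 438, 1137 and 158. The B cell, dendritic cell and erythroid sums overlapped between the sides.

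The clock genes chose the sides, so their levels are given only to show what the choice rests on. Cry1, a repressor of CLOCK and BMAL1, was at 19.9 and 15.3 CPM in hashtags 1 and 3 and at 49.0 and 51.2 in hashtags 2 and 4. Npas2 was at 2.02 and 1.13 CPM against 17.1 and 18.5. Nr1d2, which encodes the repressor REV-ERBβ, was at 19.9 and 30.6 CPM in hashtags 1 and 3 and at 6.22 and 4.38 in hashtags 2 and 4. Nr1d1, its paralogue, was at 12.5 in both of the first and at 2.33 and 4.38 in the others.
Some other genes of the same loop split the same hashtags. Nfil3, a repressor of D-box genes, was at 30.4 and 21.0 CPM in hashtags 1 and 3 and at 46.3 and 45.8 in hashtags 2 and 4. Hlf, a D-box activator, was at 22.3 and 21.0 against 36.2 and 40.9. Arntl was at 20.9 and 15.9 against 27.2 and 27.3, and Clock at 19.9 and 22.1 against 27.6 and 26.3. Rora, an activator of Arntl, was at 245 and 215 against 264 and 258. Per1 was slightly lower, at 35.8 and 34.6 against 28.8 and 32.2. Of 24 clock genes, 14 reached a mean of 10 CPM, the level at which a gene is read here. Of those 14, 8 did not overlap between the sides, 6 higher (42.9%) and 2 lower (14.3%) in hashtags 2 and 4. The rest of the 14 overlapped. Among all genes read, 13.6% were higher and 22.5% lower without overlap. The clock shares cannot be judged against these, because Cry1 and Nr1d2 helped choose the sides and are among the 8.

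Beyond the clock, few genes differed by much. A gene is called when the nearest hashtags of the 2 sides were at least 1.5-fold apart. Of 7816 genes read, 21 were called higher in hashtags 2 and 4 (0.269%) and 28 lower (0.358%), clock genes included. With median-of-ratios scaling in place of UMI totals the split was 25 higher and 19 lower. Without the 5 members holding most UMIs of each gene, a check added after the values were seen, 11 of the 21 and 12 of the 28 were still called. Values that merely did not overlap were common: 1062 genes were higher in hashtags 2 and 4 (13.6%) and 1762 lower (22.5%), together 36.1% of those read. The median difference over all genes, the mean log2 CPM of hashtags 2 and 4 minus that of hashtags 1 and 3, was -0.03. Hashtags on 1 side were not more alike than hashtags across sides. The median absolute log2 difference was 0.182 between hashtags 1 and 3 and 0.166 between 2 and 4, while the pairs across sides ranged from 0.153 to 0.199.

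**Figure D1:**
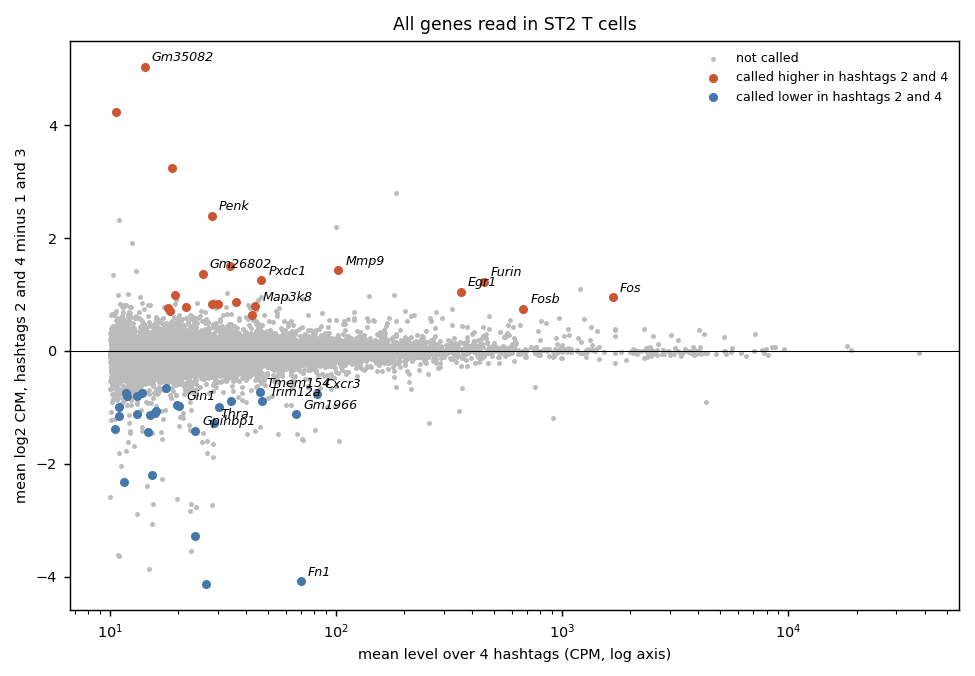
Each point is 1 of the 7816 genes read, with the mean level over hashtags 1 to 4 (CPM, log axis) against the difference between the sides (log2). The 21 genes called higher and 28 called lower are coloured, the named genes are labelled, and the other genes lie around a median of -0.03.

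The genes higher in hashtags 2 and 4 included immediate-early transcription factors. Fos, a subunit of the AP-1 factor, was at 1195 CPM (1156 to 1235) in hashtag 1 and 1083 (1035 to 1133) in hashtag 3, and at 2230 (2173 to 2289) in hashtag 2 and 2175 (2112 to 2240) in hashtag 4. The difference was 0.95 on the log2 scale, against 0.04 between hashtags 2 and 4 and 0.14 between 1 and 3. Fosb, another AP-1 subunit, was at 541 and 464 CPM in hashtags 1 and 3 and at 844 and 842 in hashtags 2 and 4, a difference of 0.75. Egr1, a zinc finger factor induced by receptor signalling, was at 262 and 199 against 539 and 418, a difference of 1.05. In each of these 3 genes both hashtags of 1 side lay above both of the other by more than the counting intervals. Gm26802, a predicted gene that lies 1903 bases from Fosb on the same strand, was at 15.2 and 13.03 against 42.8 and 31.7.

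Genes of secreted or signalling proteins followed. Furin, a protease that activates transforming growth factor beta and other precursors, was at 334 (314 to 356) and 214 CPM (193 to 236) in hashtags 1 and 3 and at 589 (560 to 619) and 662 (627 to 698) in hashtags 2 and 4, a difference of 1.22. Its annotation overlaps that of Gm44851 by 1002 bases. Mmp9, a matrix metalloproteinase, was at 66.8 and 43.1 against 183 and 115, a difference of 1.43. Within a side Mmp9 varied too, by 0.67 between hashtags 2 and 4 and by 0.63 between 1 and 3. Pxdc1 was at 34.4 and 21.0 against 75.4 and 55.1. Map3k8, a kinase upstream of ERK, was at 34.8 and 29.5 against 54.8 and 56.5. Its difference was 0.79, and 0.71 without its 5 leading members, where the nearest hashtags were just under 1.5-fold apart. Penk, the enkephalin precursor found in some tissue Tregs, had the highest ratio of the named genes that were higher, at 7.76 and 9.63 against 37.7 and 57.5. That difference rested on few cells: 5 cells held 176 of its 255 UMIs, 1 in hashtag 2 and 4 in hashtag 4. Without them the difference was -0.01 and the values overlapped.

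The genes lower in hashtags 2 and 4 included a Th1-type group. Cxcr3, the chemokine receptor of Th1 cells, was at 105 (93.3 to 117) and 101 CPM (87.1 to 117) in hashtags 1 and 3 and at 64.6 (55.1 to 75.2) and 57.5 (47.6 to 68.8) in hashtags 2 and 4, a difference of -0.76. Ifng, the Th1 cytokine, was at 49.9 and 39.7 against 26.1 and 21.9. Tbx21, the transcription factor of Th1 cells, was at 27.7 and 24.4 against 19.8 and 14.6. Il18r1 was at 40.8 and 52.1 against 32.3 and 27.3, and Ly6c2 at 41.5 and 64.0 against 28.4 and 26.3. All 5 genes of the Th1 marker list were thus lower in both hashtags 2 and 4, and 22.5% of all genes read were lower without overlap. Their sum was 265 and 282 CPM in hashtags 1 and 3 and 171 and 148 in hashtags 2 and 4. Only Cxcr3 and Ifng of these 5 were called at 1.5-fold, while Tbx21, Il18r1 and Ly6c2 were not. The counting intervals of Ifng overlapped between the sides, at 30.9 to 50.1 CPM in hashtag 3 and 20.2 to 33.1 in hashtag 2. Ccl5, a chemokine of effector T cells, was at 885 and 947 against 597 and 586, a difference of -0.63 that missed the 1.5-fold mark. Il2, which Tregs do not normally make, was at 15.5 and 14.7 against 5.44 and 8.28. Without its 5 leading members, which held 22 of 103 UMIs, its difference went from -1.15 to -0.72 and the call was lost. Itgb1, the integrin β1 chain, was at 251 and 275 against 159 and 171, also short of the 1.5-fold mark. In T cells of the same hashtags without a UMI of Il1rl1 or Foxp3, the Th1 marker sum was higher than in the members. It was 769 and 675 CPM in hashtags 1 and 3 and 845 and 702 in hashtags 2 and 4. Ccl5 was at 3251 and 3180 there against 3580 and 2676, and Il2 at 26.0 and 21.1 against 26.3 and 25.6. Any part of such cells in the members' values was not tested.

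Other named genes on the low side were of mixed kinds. Tmem154 was at 57.0 and 57.2 CPM in hashtags 1 and 3 and at 32.3 and 36.5 in hashtags 2 and 4, a difference of -0.73. Without its 5 leading members it was -0.67, still without overlap but under the 1.5-fold mark. Gin1 was at 25.6 and 27.8 against 14.4 and 12.7. Its annotation overlaps Ppip5k2 by 240 bases. Thra, a thyroid hormone receptor, was at 31.7 and 50.4 against 15.6 and 17.1. Thra overlaps the clock gene Nr1d1 by 1075 bases, a small part of its annotation. No label or header says whether strand was used in counting, and the part of reads from that overlap was not tested. 
For 2 others a few cells held most of the UMIs. Fn1, fibronectin, was at 135 and 127 CPM against 7.39 and 7.80, but 5 cells held 597 of its 661 UMIs, 2 in hashtag 1 and 3 in hashtag 3. Those cells had a median of 33775 UMIs in total and held 862 macrophage and 1017 stromal marker UMIs between them. Without them Fn1 was at 7.18, 4.95, 7.39 and 7.80 CPM in hashtags 1, 3, 2 and 4. Gpihbp1, a lipoprotein-handling protein of capillary endothelium, was at 28.01 and 41.4 against 13.6 and 11.7. The summed endothelial markers, which include it, were also higher in hashtags 1 and 3, and their part in the difference was not tested. Its 5 leading cells held 131 of 215 UMIs. Without them the difference was -0.997 and the values still did not overlap, but the nearest hashtags were under 1.5-fold apart. Among members with at least 2 Il1rl1 UMIs the difference was 0.12. Among all 49 called genes, 9 had over 50% of their UMIs in 5 cells.

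**Figure D2:**
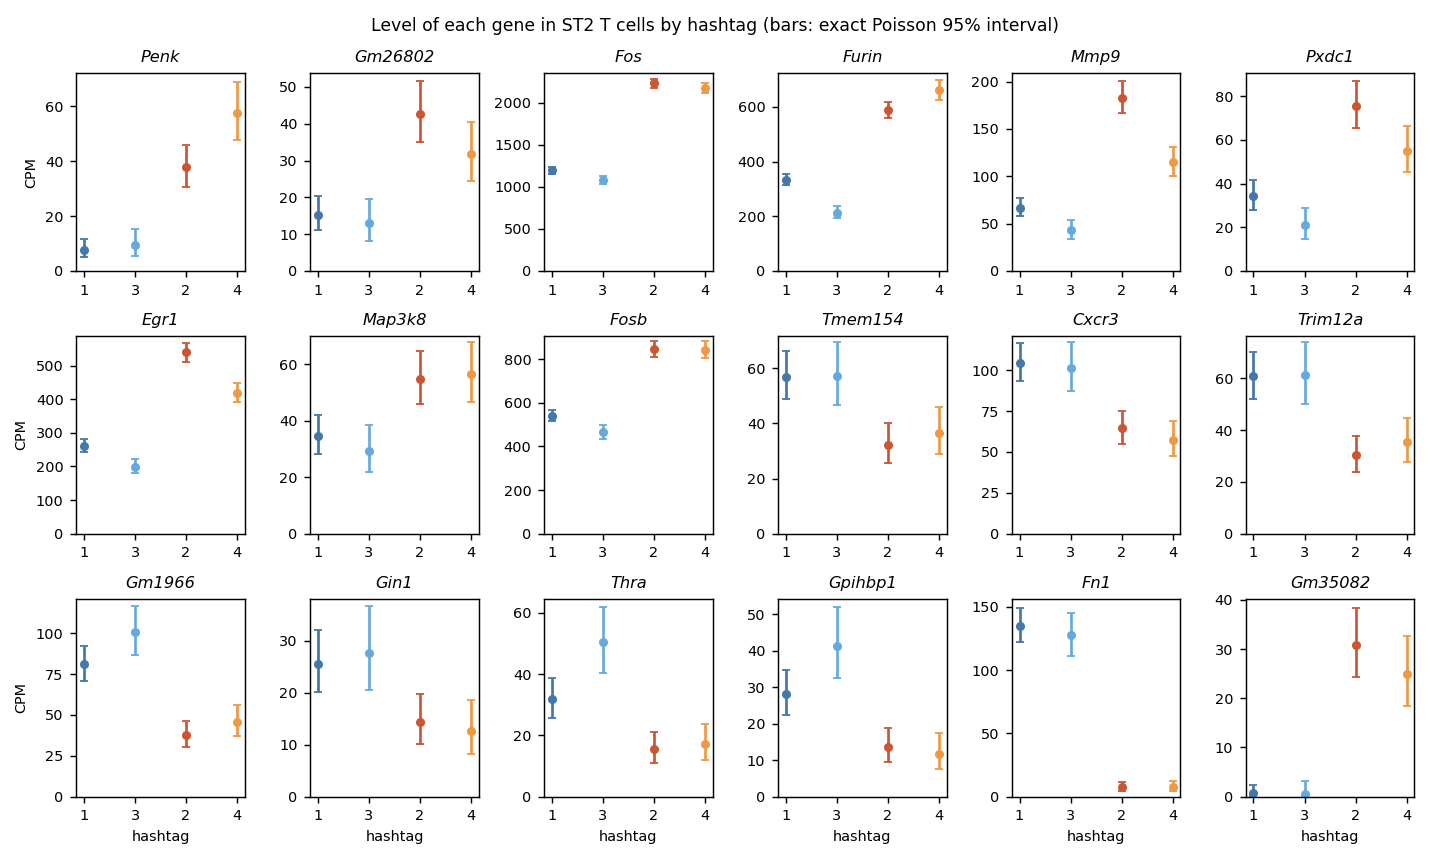
Level (CPM, linear axis from 0) of the 17 named genes and Gm35082 in ST2 T cells of hashtags 1, 3, 2 and 4, with exact Poisson 95% intervals. In every panel both hashtags of 1 side lie above both of the other, Fos for example at 2230 and 2175 against 1195 and 1083, and the splits of Penk and Fn1 were absent or reversed without 5 cells.

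Gene lists described the breadth of these differences, and for each the share of all genes read that did not overlap, 13.6% higher and 22.5% lower, is the background. In the AP-1 and dissociation list, which holds immediate-early genes that also respond to tissue digestion, 15 of 17 genes read were higher in hashtags 2 and 4 without overlap and none was lower. Its median difference was 0.52, against 0.23 between hashtags 1 and 3 and 0.04 between hashtags 2 and 4. Jun was at 493 and 453 CPM in hashtags 1 and 3 and at 764 and 632 in hashtags 2 and 4, Atf3 at 174 and 78.2 against 224 and 241, and Klf6 at 677 and 735 against 987 and 994. In the T cell receptor response list 13 of 24 were higher and 1 lower, with a median of 0.22, below the 0.30 between hashtags 1 and 3. There Cd69, an early activation marker, was at 478 and 493 against 672 and 659, Nr4a3 at 98.5 and 96.3 against 140 and 145, and Egr3 at 20.6 and 19.8 against 41.6 and 31.2. Egr1 stands on both lists.

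Genes of sterol synthesis also lay higher. In the sterol and fatty acid synthesis list 14 of 23 genes read were higher in hashtags 2 and 4 without overlap and 1 was lower, with a median of 0.29, and none was called at 1.5-fold. Hmgcs1, an early enzyme of cholesterol synthesis, was at 39.8 and 24.4 CPM in hashtags 1 and 3 and at 57.6 and 59.4 in hashtags 2 and 4. Idi1 was at 24.3 and 16.4 against 35.0 and 39.0, and Insig1, which restrains the pathway, at 25.3 and 18.1 against 34.6 and 39.0. Acaca, which starts fatty acid synthesis, was the gene on the other side, at 13.5 and 10.8 against 7.39 and 9.26.
Lipid handling genes were less uniform, with 4 of 16 higher, 1 lower and a median of 0.06. Plin2, a lipid droplet coat protein, was at 169 and 168 against 250 and 236, and Hilpda, a lipase inhibitor, at 308 and 189 against 436 and 373. In the fatty acid oxidation list 3 of 19 were higher and 7 lower, with a median of -0.09.

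The adipose Treg signature was higher by a modest amount. Of 25 genes read, 14 were higher in hashtags 2 and 4 without overlap and 2 were lower, with a median of 0.30. The 14 include the clock gene Nfil3. The median between hashtags 1 and 3 was as large, at 0.30, so this list did not separate the sides more than it separated hashtag 1 from hashtag 3. Il1rl1 itself was at 591 and 538 CPM in hashtags 1 and 3 and at 649 and 674 in hashtags 2 and 4, but the members were chosen on it. Pparg, a regulator of adipose Tregs, was at 61.8 and 43.1 against 67.3 and 63.8, and Gata3 at 585 and 472 against 644 and 632. Markers of group 2 innate lymphoid cells, which share Gata3 and Klrg1 with these Tregs, summed to 1244 and 1038 CPM in hashtags 1 and 3 and to 1426 and 1299 in hashtags 2 and 4, and their part in the signature was not tested. Areg, an epithelial growth factor made by tissue Tregs, was at 1309 and 740 against 1612 and 1313, with hashtags 1 and 4 nearly equal. Cd9 was lower, at 29.4 and 104 against 20.6 and 20.5. In the interleukin-33 receptor and tissue repair list 6 of 10 were higher and none lower, with a median of 0.34, against 0.35 between hashtags 1 and 3. Over the alternatives its median ranged from 0.14 to 0.64. The 6 higher genes include Il1rl1, on which the members were chosen, and Penk, whose values overlapped without its 5 leading cells. Their count is therefore not independent of the choice of members.

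Core Treg genes lay in both directions, with 7 of 21 higher, 5 lower and a median of 0.06. Il2ra, the interleukin-2 receptor α chain, was at 225 and 244 CPM in hashtags 1 and 3 and at 310 and 397 in hashtags 2 and 4, and Fgl2, a suppressive effector, at 298 and 312 against 445 and 387. Foxp3 was at 53.0 and 46.5 against 40.8 and 44.3. Entpd1, the ectoenzyme CD39, was at 22.3 and 23.8 against 15.9 and 11.2, and Izumo1r, folate receptor 4, at 95.5 and 81.6 against 66.5 and 59.4. Ctla4, Ikzf2, Tnfrsf18 and Klrg1 overlapped between the sides. Ctla4 was at 370 and 295 against 397 and 347, Ikzf2 at 709 in hashtags 1, 3 and 4 and 616 in hashtag 2, Tnfrsf18 at 414 and 431 against 427 and 491, and Klrg1 at 549 and 462 against 670 and 542. Ccr2 did not overlap, at 441 and 434 against 504 and 476, and Itgae was under 10 CPM in every hashtag.

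Energy and protein turnover lists lay near the median of all genes. Of 29 nuclear genes of oxidative phosphorylation none was higher and 10 were lower, with a median of -0.05, and of 11 mitochondrially encoded genes none was higher and 5 were lower, with a median of -0.05. Both medians were above 0 with median-of-ratios scaling, at 0.00514 and 0.00993. The median over all genes was then 0.0208, so both still lay below it. In the interferon response list none of 22 was higher and 6 were lower, with a median of -0.08. Proliferation genes had a median of -0.08 between the sides and 0.55 between hashtags 2 and 4, and the sign of the former changed over the alternatives, as did those of the core Treg, lipid handling and fatty acid oxidation lists. Mcm2, a DNA replication gene, was at 23.6 and 28.3 CPM against 17.5 and 21.4.

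**Figure D3:**
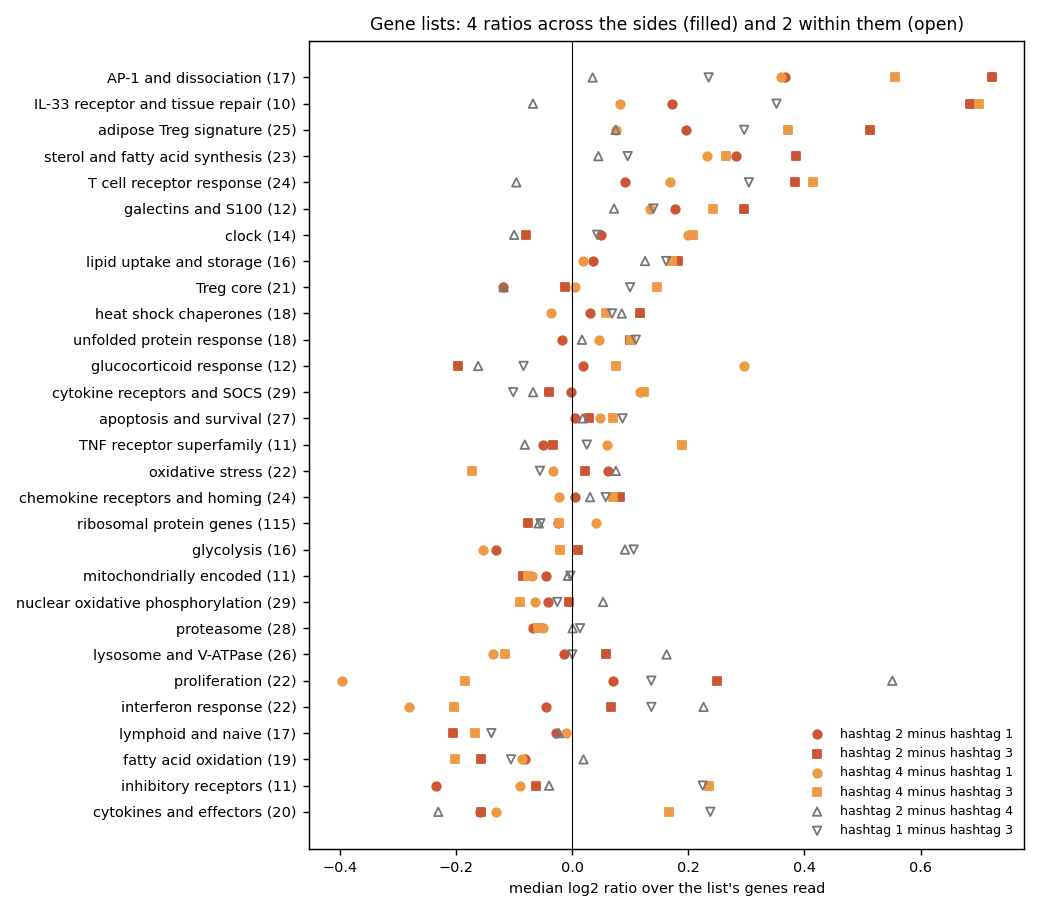
Median log2 ratio of each gene list, with the number of genes read in parentheses, for the 4 ratios across the sides (filled) and the 2 within them (open). The AP-1 and dissociation list has all 4 filled points right of 0, at 0.36 to 0.72, while in the adipose Treg signature the open point of hashtag 1 minus hashtag 3 lies at 0.30 among the filled ones.

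The same hashtags were then read in T cells outside the rule, those with no UMI of Il1rl1 or Foxp3, of which hashtags 1, 2, 3 and 4 held 1802, 815, 1205 and 635. They share mice, sort and free RNA with the members. Of 7822 genes read, 21 were called higher in hashtags 2 and 4 (0.268%) and 11 lower (0.141%). Only 3 genes were called in the same direction in both populations, Gm35082, Gm1966 and Trim12a, which is 6.12% of the 49 calls in ST2 T cells and 9.38% of the 32 in the others. Of the 17 named genes, 8 did not overlap in the same direction in the other T cells, 5 higher and 3 lower. Among all genes read there, 17.1% were higher and 15.7% lower without overlap.
Fos was at 386 and 306 CPM in the other T cells of hashtags 1 and 3 and at 557 and 614 in hashtags 2 and 4. The AP-1 and dissociation list had a median of 0.40 there and the sterol list of 0.30. Cxcr3 did not follow, at 279 and 230 against 264 and 221, nor did Ifng, at 138 and 83.0 against 168 and 105. Npas2 was at 0.550 and 0.803 against 2.92 and 2.61. Whether any gene differed between the 2 populations was not tested.

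**Figure D4:**
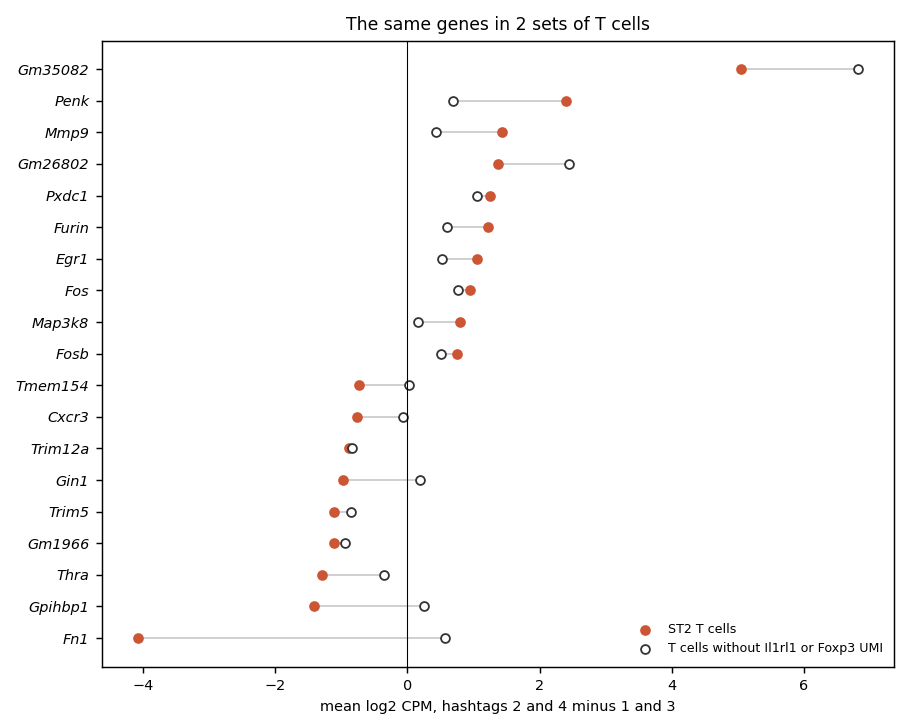
Difference between the sides (mean log2 CPM) of the 17 named genes, Gm35082 and Trim5 in ST2 T cells (filled) and in T cells without an Il1rl1 or Foxp3 UMI (open), joined by a line. Gm1966 lies at -1.12 and -0.94 and Trim12a at -0.89 and -0.84, while Cxcr3 lies at -0.76 and -0.07. The position of Gm35082 depends on the prior of 0.5 UMI, since its counts are near 0 on 1 side.

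Genes near Arntl on chromosome 7 were looked at because several calls lay there, a choice made after the values were seen. Arntl spans chr7:113178471-113314126 (GRCm38.p6, RefSeq). Within 15 Mb of it, 4 of 176 genes read were called (2.27%), against 42 of 7491 elsewhere (0.561%). In the other T cells 6 of 166 genes read in the window were called. Of all genes read there, 0.268% were called higher and 0.141% lower. Gm35082, a predicted gene at chr7:100675007-100678142 in the same build, had 2 and 1 UMIs in hashtags 1 and 3 and 79 and 51 in hashtags 2 and 4. That is 0.675 (0.0817 to 2.44) and 0.566 CPM (0.0143 to 3.16) against 30.7 (24.3 to 38.3) and 24.8 (18.5 to 32.7). The pooled ratio was 44.3, with a counting interval of 14.8 to 218. In the other T cells it was at 0 and 0.268 CPM in hashtags 1 and 3, at 23.8 and 19.3 in hashtags 2 and 4, and at 0.252 and 0.430 in hashtags 5 and 6. Its values did not overlap between the sides in either population.
The other called genes in the window were lower in hashtags 2 and 4. They were Trim5, Trim12a and Gm1966, which start in the same stretch, at -8.92, -8.88 and -6.58 Mb from the start of Arntl. In the other T cells Trim12a and Gm1966 were again called lower, with Trim34a (-8.93 Mb) and Trim30d (-8.71 Mb) of that stretch. Most window calls thus came from this stretch. Gm1966 was at 81.0 and 101 CPM against 37.7 and 45.8, Trim12a at 60.7 and 61.2 against 30.3 and 35.6, and Trim5, a restriction factor, at 14.8 and 21.5 against 8.56 and 7.80. Gm1966 was at 119 and 111 against 55.6 and 64.3 in the other T cells, and Trim12a at 106 and 97.9 against 55.1 and 58.5. Both belong to families of near-identical copies. How the authors' counting treated reads shared by such copies was not examined, so their levels are uncertain. Trim12a also overlaps Gm15133 by 528 bases.

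**Figure D5:**
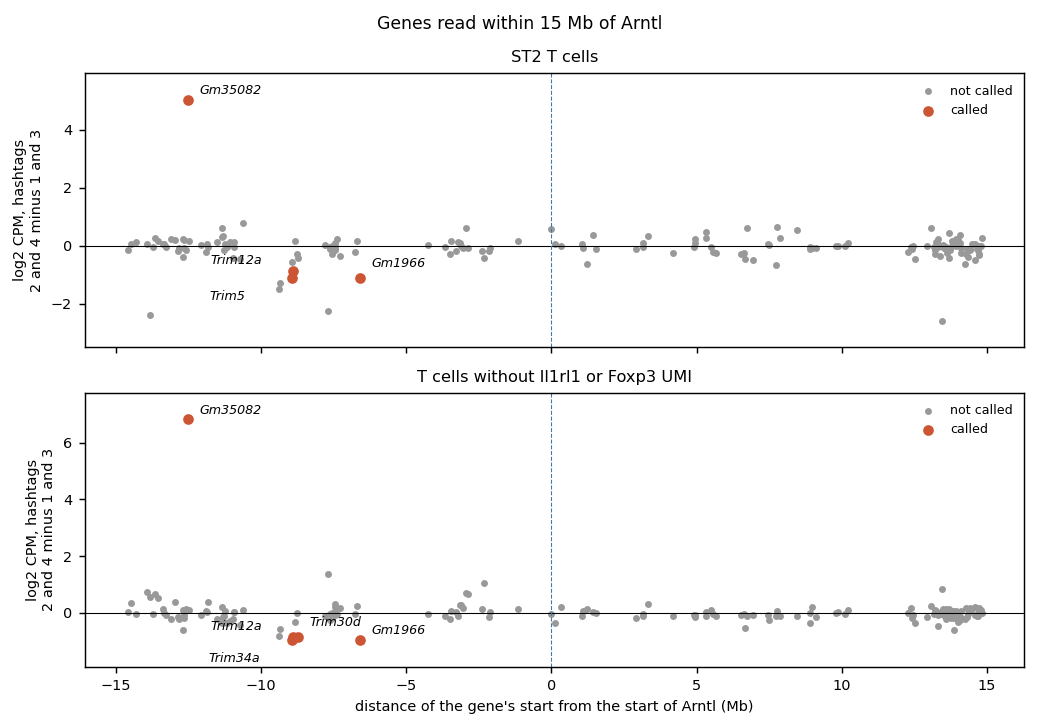
Difference between the sides (mean log2 CPM) against distance from the start of Arntl (Mb), for genes within 15 Mb that were read in ST2 T cells, in those cells (top) and in T cells without an Il1rl1 or Foxp3 UMI (bottom). The called genes, in red, all lie before Arntl, with Gm35082 above 0 and the others below it, and Sult1a1, called in the lower set of cells alone, was not read in ST2 T cells and is not drawn.

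E-boxes were searched in the promoters because CLOCK and BMAL1 bind them. The motif CACGTG, which reads the same on both strands, was looked for in RefSeq promoter windows of 300 bases. The table held 10 of the 17 named genes and none had it, while 12.7% of 6170 read genes with a window did. No match says only that these letters are absent from this window, and no promoter is shown.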

How the data were processed

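Single-cell 3′ RNA-seq (10x Genomics v3.1) and hashtag libraries were made from 1 pool. The authors deposited UMI counts of genes per barcode and, for the hashtags, read or UMI counts of each tag per barcode, both as whole numbers without normalisation. Different versions of the counting program are recorded, cellranger 4.0.0 per the file headers and Cell Ranger 6.0 (with Seurat 3 and the mm10 build) per the submitters' processing notes. Which of them made these counts was not settled.

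Of 22960 expression barcodes, 22952 were in the hashtag library. 21236 passed the gene and mitochondrial filters, 14382 of those had 1 top hashtag, and 13771 of those were T cells. No doublet caller was run: the 80% rule removes mixed hashtags, and pairs of cells with 1 hashtag remain. UMIs were summed per hashtag and scaled to CPM, with a prior of 0.5 UMI on the log scale (pandas 2.3.3 and numpy 2.4.6 under Python 3.11.15, with intervals from scipy 1.17.1). The members' sums, from 1765314 to 2963539 UMIs per hashtag, set the width of the Poisson intervals, and shares carry exact Clopper-Pearson intervals. Both cover counting error only. The call rule was checked on simulated data.

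Named genes beyond the clock were called, had a mean of at least 20 CPM and non-overlapping intervals, and were not T cell receptor variable, ribosomal, mitochondrial or immunoglobulin genes (up to 15 in each direction, by gap between the nearest hashtags). In each of 28 gene lists up to 4 members with the largest gap were eligible, and the ST2 Treg markers were named whatever their values. Trim5, Gm35082, Tbx21, Ly6c2, Jun, Atf3 and Acaca fall outside this rule and were chosen after their values were seen. The members, sides and lists were chosen with earlier results of these data known. Positions were matched by symbol in RefSeq (GRCm38.p6) for 7667 of the 7816 genes read. Alternatives covered the cell, T cell, ST2, Treg and hashtag gates, scaling, depth, the filter on low values, the prior and each hashtag left out.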

Additional observations from a re-analysis of the deposited data

How the results depend on the processing

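The numbers of genes called depended on the settings, while most named genes kept their direction. Against 21 higher and 28 lower, a stricter hashtag rule (at least 95% and 50 counts) gave 47 and 53, thinning to 2000 UMIs 48 and 73, a mean of at least 50 CPM 5 and 3, and no filter on low values 380 and 786. Members with at least 2 Il1rl1 UMIs gave 47 lower, and the mean of the cells' own CPM gave 46 lower. Without each gene's 5 leading members, chosen after the data were seen, 11 and 12 were still called. Leaving out each hashtag in turn, so that 1 hashtag stands for a side, gave 191 higher and 281 lower without hashtag 1, 65 and 175 without hashtag 2, 57 and 84 without hashtag 3, and 63 and 146 without hashtag 4. Of the 17 named genes, 14 kept their direction in all 15 alternatives run. The alternatives that left out a hashtag could not reverse a named gene. By the rule of choice, both hashtags of 1 side lay above both of the other for each of these genes. Fn1 reversed under the stricter hashtag rule (0.53), without cells with a UMI of another cell type (0.0898) and without its leading members (0.33). Gpihbp1 reversed with at least 2 Il1rl1 UMIs (0.12), and Penk without its leading members (-0.0140). Other called genes that reversed were Egfl7 (0.49), Igkv12-44 (-0.67) and Ppfibp1 (0.42) under the stricter hashtag rule, Egfl7 with at least 2 Il1rl1 UMIs (0.92), and Cd34 (0.15), Egfl7 (0.10) and Enpp2 (0.63) without their leading members. Of 28 list medians, 8 kept their sign in all 16 alternatives and 20 did not. Those 8 were AP-1 and dissociation, interleukin-33 receptor and tissue repair, adipose Treg signature, sterol and fatty acid synthesis, T cell receptor response, galectins and S100, interferon response, and cytokines and effectors. Among the others, proliferation reached 0.19, inhibitory receptors 0.20 and the TNF receptor superfamily 0.22, the clock list was at -0.16 with no filter on low values, and core Treg genes at -0.06 without hashtag 4. Lists whose 4 ratios across the sides shared a sign, and whose median nonetheless changed sign, were fatty acid oxidation (0.0422), oxidative phosphorylation (0.0245) and proteasome (0.00268) under the stricter hashtag rule, lymphoid and naive (0.0340) with at least 2 Il1rl1 UMIs, apoptosis and survival (-0.0121) with a Treg gene required, and oxidative phosphorylation (0.00922) with the cells' own CPM. With median-of-ratios scaling, oxidative phosphorylation (0.00514), mitochondrially encoded genes (0.00993) and proteasome (0.00333) changed sign. Under that scaling the median over all genes also changed sign, to 0.0208, and these 3 lists stayed below it. Fatty acid oxidation changed sign after thinning (0.0850), and lipid uptake and storage without hashtag 2 (-0.0263). Where no construction is named, the cause was not tested. No paired analysis was possible because the hashtags carry no replicate numbers and no result comes from a test.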

Other observations

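Some called genes fell outside the rule for named genes because of their level or counting intervals, and are given as values chosen after they were seen. P2rx7, a receptor for extracellular ATP that can trigger T cell death, was at 19.6 and 21.0 CPM in hashtags 1 and 3 and at 6.61 and 12.7 in hashtags 2 and 4. Ahr, the aryl hydrocarbon receptor, was at 18.9 and 24.4 against 10.5 and 9.26. Tbc1d4, a regulator of glucose transporter traffic, was at 41.2 and 39.1 against 16.7 and 23.9. Cd200, an immunoregulatory ligand, was at 23.3 and 19.8 against 8.17 and 12.7. In T cells without an Il1rl1 or Foxp3 UMI these 4 genes were not called. P2rx7 was at 34.1 and 32.9 there against 35.5 and 28.2, and Ahr at 13.7 and 13.6 against 15.9 and 18.8. On the high side, Lat2, a signalling adaptor, was at 14.2 and 13.6 CPM in the ST2 T cells against 22.2 and 23.4, and Milr1, an inhibitory receptor, at 15.2 and 10.8 against 24.5 and 26.8. Without each gene's 5 leading members the differences were 0.72 for Lat2 (0.70 with them) and 0.84 for Milr1 (0.99), both without overlap but under the 1.5-fold mark. In the same check Tbc1d4 went from -0.998 to -0.87 and Cd200 from -1.06 to -0.64, also under the mark, while P2rx7 and Ahr stayed called. Of the 5 leading cells of Cd200, 4 held at least 5 endothelial marker UMIs. Of the 5 leading cells of Lat2, 4 held at least 5 macrophage and monocyte marker UMIs.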
